A study of Mus musculus with 10 samples.

Results

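The 9 genes described here are Fgf2, which encodes basic fibroblast growth factor, its antisense neighbour Nudt6, the second ligand Fgf1, the FGF receptor genes Fgfr1, Fgfr2, Fgfr3 and Fgfrl1, and the heparan sulfate proteoglycan genes Sdc4 and Gpc1. They were found among the 46983 genes of the count table by their Ensembl identifiers, and all 9 had enough reads to enter the comparison of 15949 genes. RNA was measured in CD31+ cells that were isolated from mouse hearts with antibody-coated magnetic beads. The animals were wild-type male C57BL/6J mice that were 8 weeks old when their diets started. The control group of 5 mice received a control diet with 11.6% of its energy as fat, and the ketogenic group of 5 mice received a ketogenic diet with 89.5%, both for 14 days. Each mouse gave 1 library. The members were chosen from results of this same diet contrast, so their differences between the diets are given as a description, with estimates and intervals. Where a member is said to pass the threshold of the fit over all genes, this restates the choice and is no independent test.

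FGF2 and FGF1 bind tyrosine kinase receptors on the cell surface together with heparan sulfate, a sulfated sugar chain carried by proteoglycans such as syndecan-4 and glypican-1. The bound receptor signals through the RAS and MAP kinase cascade, through phosphoinositide 3-kinase and through phospholipase C gamma, and the cascade turns on its own inhibitors, among them the Sprouty and DUSP genes. FGF2 is a classical growth factor of endothelial cells and has long been studied in blood vessel formation. Nudt6 encodes a nudix hydrolase and is transcribed from the strand opposite Fgf2, so that the ends of both transcripts are complementary.

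Fgf2 (ENSMUSG00000037225.13) lies on the plus strand at chr3:37348346-37410108 of GRCm38, and Nudt6 (ENSMUSG00000050174.15) on the minus strand at chr3:37404910-37420211. Their exons share 640 bases in 2 blocks, one of 585 bases at chr3:37404910-37405494 and one of 55 bases at chr3:37409508-37409562. The middle 30 bases of the shorter block, chr3:37409521-37409550, are shown from both transcripts because they are the reason why a read without strand cannot be given to either gene. They are coding sequence of Nudt6 and untranslated sequence of 1 annotated Fgf2 transcript. All letters are in capitals because every base pairs with the other strand.
Nudt6 strand: TGGAAGTTTCCAGGAGGCCTGTCGGAGCCA
Fgf2 strand: TGGCTCCGACAGGCCTCCTGGAAACTTCCA

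The libraries did not record strand. Among 114 genes that lie at least 95% within the exons of a gene on the opposite strand, 109 had a mean count under 1 read. Reads in such overlaps were thus not counted for the inner gene. That they were counted for neither gene is inferred, since the counting options are not given. A read on the sequence shown above is therefore taken to have entered neither the Fgf2 nor the Nudt6 count. Of the 6782 exon bases of Fgf2, 5887 remained countable, among them 328 of its 511 coding bases. Of the 1677 exon bases of Nudt6, 721 remained countable, since it also overlaps Spata5 at its other end. The map of the locus shows that most of the countable Fgf2 sequence lies in its long last exon, outside the shared blocks.

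**Figure D1:**
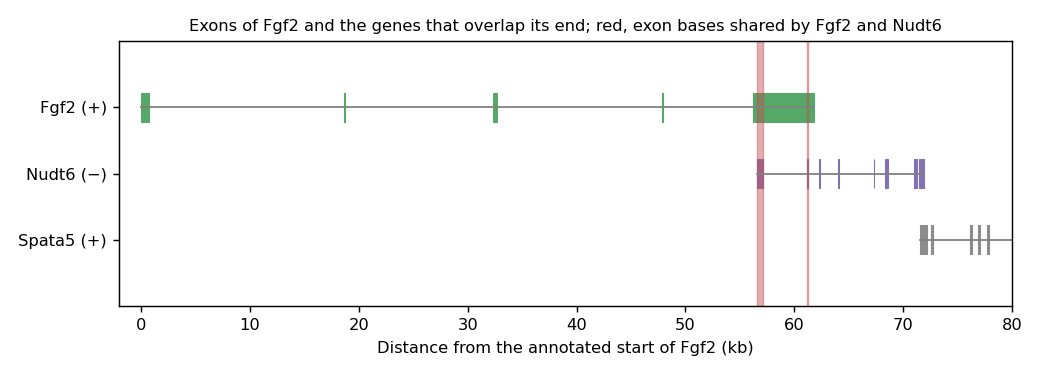
Exon blocks of Fgf2, Nudt6 and Spata5 (boxes) against the distance from the annotated start of Fgf2 in kilobases, with the strand of each gene in brackets. The red bands mark the 585 and 55 bases that exons of Fgf2 and Nudt6 share, and only the first exons of Spata5 are drawn. Gm43439, which shares 255 further bases with Fgf2, is not drawn.

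The sequence before the start of Fgf2 and of its neighbour is shown because only Fgf2 passed the threshold in the comparison of the diets. RefSeq windows of 250 bases before a gene's start on GRCm38.p6 were found for 6 of the 9 genes, and the GC box GGGCGG was searched on both strands, with overlapping matches counted separately. The Fgf2 window held 1 GC box, as at least 1 was found in 32.7% of 32851 windows. It is shown within 30 bases at chr3:37348580-37348609, plus strand, which GENCODE places in the untranslated first exon of 1 Fgf2 transcript, with the GC box in capitals.
Fgf2 upstream: ggcgtggggaggaggcggcgcgcgGGGCGG
The Nudt6 window held 9 GC boxes, a number reached in 0.0731% of windows. The first of the 9 lies in bases that are exonic in the Nudt6 transcripts that start farther upstream and are not shown. The other 226 bases, chr3:37419597-37419822, lie before the RefSeq start but in an intron of those transcripts in GENCODE, and are shown on the minus strand with their 8 GC boxes in capitals, where a run of 11 capitals is a pair of GC boxes that share a base.
Nudt6 upstream: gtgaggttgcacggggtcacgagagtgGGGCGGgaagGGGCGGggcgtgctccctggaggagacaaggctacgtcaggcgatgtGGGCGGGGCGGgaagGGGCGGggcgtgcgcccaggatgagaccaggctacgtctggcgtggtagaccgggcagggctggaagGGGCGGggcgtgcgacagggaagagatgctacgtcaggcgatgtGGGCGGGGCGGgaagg
Neither window held the TATA box letters TATAAA, which were found in 12.4% of windows, and both held TGACG 2 times, which at least 1 time was found in 17.8%. These matches describe the letters and are not sites.

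Fgf2 was the only one of the 9 genes that passed the adjusted p threshold of 0.05 in edgeR's quasi-likelihood test over all genes. Over all 15949 genes, 1.34% passed in either direction and 0.809% passed as higher on the ketogenic diet. Since the members were chosen from this contrast, nothing is read from their count beside that background. Normalized counts did not overlap between the diets for 3 of the 9 genes, Fgf2, Gpc1 and Fgfr3, and for 4.34% of all tested genes. The median log2 fold change was -0.03 over the 9 genes and -0.01 over all tested genes.

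The Fgf2 counts were 70, 96, 68, 98 and 84 reads in control mice 1 to 5, and 172, 192, 164, 174 and 210 reads in ketogenic mice 1 to 5. Every ketogenic mouse was above every control mouse, and the lowest ketogenic count was far from the highest control count. Scaled to a common library size (the normalized count used from here on), the means were 85.0 ± 13.0 on the control diet and 178 ± 16.8 on the ketogenic diet (SD, n = 5 each). The fitted difference was 2.10-fold, with a 95% interval from 1.74 to 2.52, or 1.07 ± 0.12 (SE) on the log2 scale. By log2 fold change, Fgf2 ranked 23rd among the genes called higher. The Fgf2 reads of all control mice together numbered 416 and those of all ketogenic mice 912. The spread of the control counts was above what counting alone gives, with a coefficient of variation of 15.3% against 11.0% from counting. On the ketogenic diet these values were 9.43% and 7.40%.

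The Nudt6 counts were 23, 13, 16, 13 and 23 reads in control mice 1 to 5, and 22, 20, 12, 14 and 14 reads in ketogenic mice 1 to 5. The diets overlapped, with high and low mice in both. The log2 fold change was -0.17 ± 0.28 (SE), with a 95% interval from -0.79 to 0.46, so a change of moderate size in either direction was not detectable at this depth. With 1 mouse left out it ran from -0.29, without ketogenic mouse 1, to -0.03, without control mouse 1. The interval of Fgf2 began at 0.80 and lay above all of it. In reads per mouse, Fgf2 had 3.04 to 7.54 times as many as Nudt6 on the control diet. On the ketogenic diet it had 7.82 to 15.0 times as many. These ratios did not overlap, but the gap from 7.54 to 7.82 was narrow and rests on 12 to 23 Nudt6 reads per mouse. Since Fgf2 was chosen from this contrast, the separation restates the choice.

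The Fgf1 counts were 892, 968, 713, 964 and 1123 reads in control mice 1 to 5, and 1126, 999, 1369, 968 and 1284 reads in ketogenic mice 1 to 5. Fgf1 encodes acidic fibroblast growth factor, which binds all the signalling FGF receptors. Most mice of both diets lay in 1 range, and 2 ketogenic mice were above the highest control mouse after normalization. Mean normalized counts were 954 ± 143 and 1122 ± 150 (SD, n = 5 each), and the log2 fold change was 0.23 ± 0.11 (SE), with a 95% interval from -0.01 to 0.48.

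**Figure D2:**
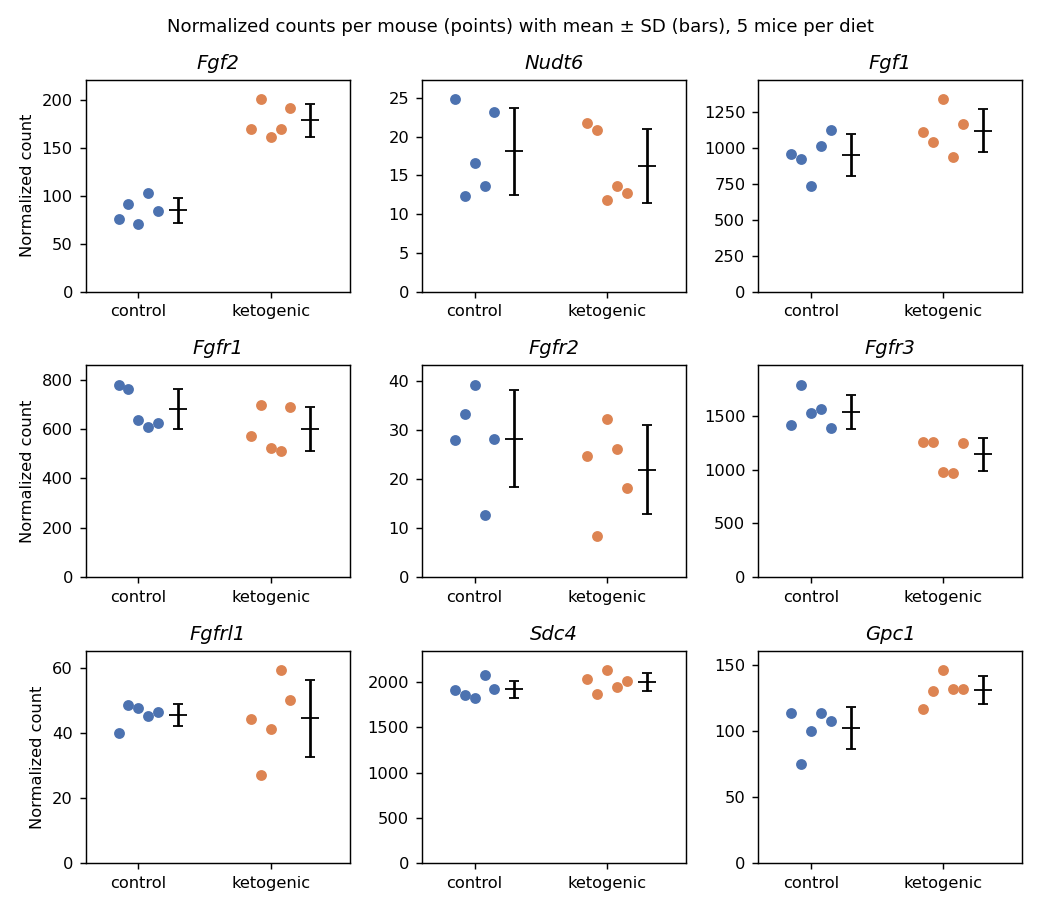
Normalized counts of the 9 genes in each mouse (points, replicates 1 to 5 from left to right), with the mean ± SD beside them, on axes that start at 0. The Fgf2 points of the diets are separated by a wide gap, those of Fgfr3 and Gpc1 by a narrow one, and the other 6 genes overlap.

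Among the receptors, Fgfr3 was the one whose diets were apart. Its normalized counts were 1412, 1788, 1523, 1561 and 1382 in control mice 1 to 5, and 1258, 1254, 980, 965 and 1244 in ketogenic mice 1 to 5. All 5 ketogenic mice were below all 5 control mice, with ketogenic mice 3 and 4 the lowest. The counts as deposited overlapped, since the largest ketogenic library had 1365 reads on Fgfr3 and the smallest control library 1307. The mean went from 1533 ± 161 to 1140 ± 153 (SD, n = 5 each), a fold of 0.743 with a 95% interval from 0.644 to 0.859, or -0.43 ± 0.10 (SE) on the log2 scale. Fgfr3 did not pass the threshold in the all-gene fit. It passed in 6 of 21 alternative fits, among them DESeq2, which called 5.51% of the genes it tested, and the fit without ketogenic mouse 2.

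Fgfr1, the receptor usually described as the main one of endothelial cells, had between 579 and 799 reads in control mice and between 526 and 758 in ketogenic mice. The ranges overlapped, 3 ketogenic mice were below the lowest control mouse after normalization, and the log2 fold change was -0.19 ± 0.11 (SE), with a 95% interval from -0.42 to 0.05. Fgfr2 had 12 to 38 reads in control mice and 8 to 33 in ketogenic mice. Its log2 fold change was -0.36 ± 0.35 (SE), with an interval from -1.13 to 0.41 that holds both a large fall and a moderate rise. It was -0.16 without ketogenic mouse 2, -0.22 without control mouse 3 and -0.55 without control mouse 4. Fgfrl1, which encodes a receptor without the tyrosine kinase domain, had 37 to 51 and 26 to 61 reads. Its log2 fold change was -0.03 ± 0.19 (SE), with an interval from -0.46 to 0.39, and without ketogenic mouse 2 it was 0.10.

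The Gpc1 counts were 105, 79, 97, 108 and 107 reads in control mice 1 to 5, and 118, 125, 149, 136 and 145 reads in ketogenic mice 1 to 5. Every ketogenic mouse was above every control mouse, although ketogenic mouse 1 was close to the highest of them. Mean normalized counts were 102 ± 15.9 and 132 ± 10.6 (SD, n = 5 each). The fold was 1.29, with a 95% interval from 1.06 to 1.56, and Gpc1 did not pass the threshold in the all-gene fit or in any of the 21 alternatives. Of its 5159 exon bases, 977 overlap Ankmy1 and were not countable.

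Sdc4, the syndecan known as a co-receptor for FGF2, had 1762 to 1975 reads in control mice and 1788 to 2214 in ketogenic mice. The ranges overlapped, and the log2 fold change was 0.06 ± 0.05 (SE), with a 95% interval from -0.04 to 0.16. Sdc4 is the gene of the 9 with the densest reads, at up to 0.869 reads per countable base. Only 5 of 33423 genes of at least 500 countable bases had over 2 reads per base in any mouse. With counts corrected for a limit of 2 read starts per base, an alternative added after the data had been seen, its log2 fold change was 0.09. The other members had at most 0.304 reads per base, and their log2 fold changes moved by little in that fit, to -0.46 for Fgfr3 and 1.07 for Fgf2.

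**Figure D3:**
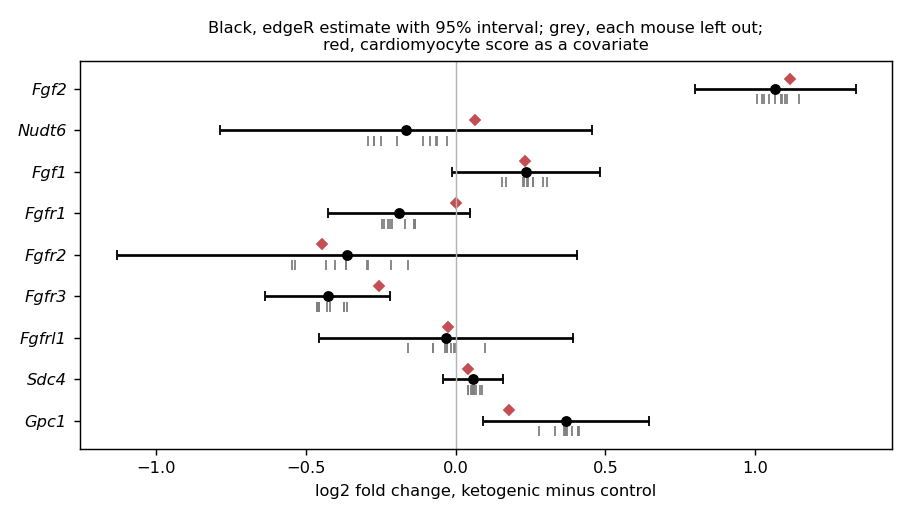
Log2 fold changes of the 9 genes between the ketogenic and the control diet, with 95% intervals (black), the 10 estimates with 1 mouse left out (grey ticks) and the estimate from a fit that also holds a cardiomyocyte score per mouse (red). The interval of Fgf2 runs from 0.80 to 1.33, and the red mark of Gpc1, Fgfr3 and Fgfr1 lies nearer to 0 than the black point.

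Levels of different genes were compared as CPM (counts scaled to library size, with TMM factors) per kilobase of countable exon, because the lengths behind the deposited RPKM values exceed the exon bases of genes with many transcripts. In control mice the order of the mean levels was Sdc4 at 64.7 ± 3.29, Fgfr3 at 21.3 ± 2.24, Fgf1 at 15.0 ± 2.25, Fgfr1 at 6.02 ± 0.72, Nudt6 at 2.16 ± 0.67, Gpc1 at 2.09 ± 0.33, Fgfrl1 at 1.40 ± 0.10, Fgf2 at 1.24 ± 0.19 and Fgfr2 at 0.242 ± 0.085 (SD, n = 5). Nudt6 and Gpc1 overlapped in that order, as did Fgfrl1 and Fgf2, while the other neighbours did not. On this scale Fgf2 was near the bottom of the list in control mice, and its mean level was below that of Fgf1 by a wide margin.

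In ketogenic mice the mean level of Fgf2 was 2.60 ± 0.24 and above those of Fgfrl1, at 1.37 ± 0.36, and of Nudt6, at 1.92 ± 0.57, although the ranges of Fgf2 and Nudt6 overlapped. Gpc1, at 2.70 ± 0.22, overlapped Fgf2. Fgf1, at 17.6 ± 2.36, and Fgfr3, at 15.9 ± 2.13, had exchanged places and overlapped each other. In the deposited RPKM values, Sdc4 also came first and Fgfr2 last on both diets, but Nudt6 came 8th on both, at 0.270 ± 0.083 on the control diet and 0.243 ± 0.071 on the ketogenic diet. Fgf2 came 6th by RPKM on the control diet and 5th on the ketogenic diet, against 8th and 6th per kilobase of countable exon. The places of Nudt6 and Fgf2 therefore depend on the length used.

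**Figure D4:**
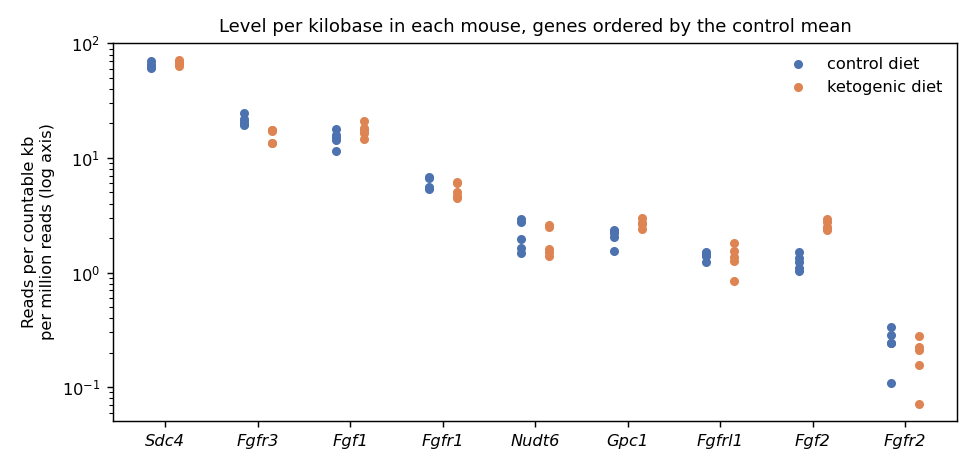
Level of each gene in each mouse, as CPM per kilobase of countable exon on a log axis, for 5 control (blue) and 5 ketogenic (orange) mice. Sdc4 is highest and Fgfr2 lowest on both diets, and Fgf2 is the gene whose orange points stand well above its blue points.

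The rest of the pathway was read from 6 lists of 100 genes, of which 73 were tested. None passed the adjusted p threshold in edgeR, none did so in DESeq2, and none did so in any of the 21 alternatives. At an unadjusted p under 0.05 there were 13, 7 with a positive and 6 with a negative log2 fold change. They are 17.8% of the tested pathway genes, and the same share over all tested genes was also 17.8%. Over the 73 genes, log2 fold changes ran from -0.70 to 0.69, all nearer to 0 than that of Fgf2.

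Of the 20 other ligand genes, 4 were tested, and 2 had no read in any mouse. The median log2 fold change of the 4 was 0.26. Fgf14 had normalized counts of 92.1 ± 21.9 and 108 ± 39.3, and Fgf11 of 83.4 ± 14.8 and 89.2 ± 22.9 (control and ketogenic, SD, n = 5 each). Both encode FGF homologous factors, which stay inside the cell and are not secreted. Their log2 fold changes were 0.24 ± 0.25 and 0.10 ± 0.19 (SE), with adjusted p of 0.66 and 0.83 by edgeR.

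Of the 8 other receptors, co-receptors and binding proteins, 5 were tested, with a median of 0.17. Flrt2 and Flrt3 encode membrane proteins of the FLRT family, which can bind FGF receptors, and their log2 fold changes were 0.17 ± 0.16 and 0.36 ± 0.35 (SE). Of 11 other heparan sulfate proteoglycans 9 were tested, with a median of 0.05. Sdc2 had 1646 ± 42.3 and 1727 ± 205 normalized counts, and Hspg2, which encodes the basement membrane proteoglycan perlecan, had 3488 ± 142 and 3798 ± 348. The control mice were much closer to each other than the ketogenic mice for both genes, and the log2 fold change of Hspg2 was 0.12 ± 0.06 (SE, adjusted p = 0.29 by edgeR).

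Of 25 genes that build or trim heparan sulfate chains, 21 were tested, 16 with a positive and 5 with a negative log2 fold change and a median of 0.11. B3gat3, which completes the linker between protein and sugar chain, had a log2 fold change of 0.11 ± 0.06, and Hs3st1, a 3-O-sulfotransferase, one of -0.06 ± 0.07 (SE). All 22 genes of signal transduction below the receptor were tested, with a median of 0.02. Mapk3, which encodes ERK1, was at 2804 ± 54.1 and 2834 ± 104, and Nras at 5770 ± 127 and 5766 ± 151. These are among the most closely matched values between the diets in the pathway.

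The list of feedback inhibitors and transcriptional targets holds genes that FGF receptor signalling can turn on, though not it alone, and 12 of 14 were tested. Their median was -0.03, with 5 positive and 7 negative values. Dusp6, the phosphatase of ERK, had normalized counts of 4293 ± 255 on the control diet and 4217 ± 212 on the ketogenic diet, with a log2 fold change of -0.03 ± 0.05 (SE, adjusted p = 0.81 by edgeR). Spry4, an inhibitor of the RAS and MAP kinase cascade, had 2649 ± 191 and 2777 ± 276, with 0.07 ± 0.07 (SE, adjusted p = 0.64). A difference of the size seen for Fgf2 lies far outside the errors of these 2 genes as counted. Whether a limit of reads per base held their counts level was not examined. Over the list, log2 fold changes ran from -0.57 to 0.25. At an unadjusted p under 0.05 in edgeR there were 2 genes, 1 higher and 1 lower on the ketogenic diet.

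**Figure D5:**
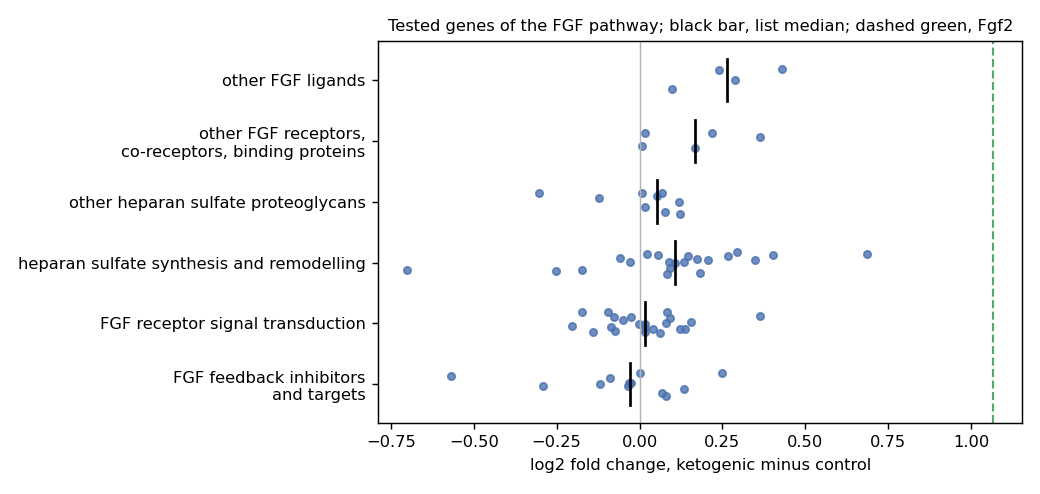
Log2 fold changes of the 73 tested genes of the FGF pathway in their 6 lists (points, shifted at random in height), with each list's median (black bar) and the value of Fgf2 (dashed line at 1.07). No point reaches the line, and the lists centre between -0.03 and 0.26.

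The region around Fgf2 holds 37 other genes within 500 kb, of which 9 were tested. None passed the threshold in edgeR, in DESeq2 or in any other alternative, and 1, Gm43820, had an unadjusted p under 0.05, named here after its value was seen, with a log2 fold change of -0.49 ± 0.17 (SE). Spry1, the Sprouty gene of this region, had 1078 ± 108 and 991 ± 187 normalized counts, with a log2 fold change of -0.12 ± 0.12 (SE, adjusted p = 0.64 by edgeR). Gm12582 had 52.5 ± 2.37 and 55.2 ± 3.16. Spata5, named for its overlap with Nudt6, had 312 ± 52.1 and 274 ± 21.1, with -0.19 ± 0.11 (SE). Of the 9, 5 had a positive and 4 a negative log2 fold change, with a median of 0.06 and a range from -0.49 to 0.72. The highest, also named after their values were seen, were the near neighbours Cetn4, at 0.72 ± 0.35 (SE) with 4 to 20 reads per mouse, and Bbs12, at 0.62 ± 0.36 (SE) with 16 to 127 reads, and the diets overlapped for both.

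Within the diets, Fgf2 was compared with every other tested gene by the correlation of log2 CPM over the 10 mice after the mean of each diet was taken off. The most alike were Gm38342 (r = 0.93), Gm43313 (0.92), 5930403N24Rik (0.92), BC024978 (0.91) and Piga (0.91), and these are the highest of a very large number of correlations over few mice. Among the members, r with Fgf2 was 0.52 for Fgfr3, 0.28 for Fgf1, -0.22 for Nudt6 and -0.81 for Fgfr2, a gene with 8 to 38 reads per mouse. All points share their library with the Fgf2 value.

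The RNA of the CD31+ cells was compared with markers of endothelial and of other cells. All 12 endothelial markers were detected in every mouse, Cdh5 with 7356 to 7571 reads and Erg with 2154 to 2931, and none passed the threshold in edgeR or DESeq2, with 3 at an unadjusted p under 0.05. Total counts were 10885154 to 12206734 in control mice and 11108020 to 12710861 in ketogenic mice. Relative to their size, the Cdh5 reads varied less between mice than these totals did. Whether a limit of reads per base held the counts of abundant markers level was not examined. Their lack of a call is therefore no measure of endothelial content. Markers of other cells were also present. The 12 cardiomyocyte markers summed to 7438 to 9408 normalized counts per control mouse and 8833 to 12494 per ketogenic mouse, 11 of them with a positive log2 fold change. None of the 12 passed in edgeR, 6 did so in DESeq2, and 9 had an unadjusted p under 0.05. By mean RPKM, Actc1 was the highest, at 1227 and 1565 mean normalized counts on the control and the ketogenic diet, and Ryr2 the lowest, at 54.4 and 92.8. The marker with a negative log2 fold change was Nppa, named after its value was seen, at -0.49 ± 0.46 (SE). In a bulk sample, a different number of cells of a type and a different amount of RNA per cell cannot be told apart.

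With the mean z-score of these 12 markers in each mouse added to the fit, the log2 fold change of Fgf2 was 1.12 and passed the threshold. That of Fgfr3 went from -0.43 to -0.26, that of Gpc1 from 0.37 to 0.18, that of Fgfr1 from -0.19 to a value that rounds to 0, and that of Nudt6 from -0.17 to 0.065. The score was -1.33 to 0.17 in control mice and -0.47 to 1.37 in ketogenic mice, so it moves with the diet. The part of these cells in the differences of the FGF genes, Fgf2 among them, was not tested.

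Sums of the remaining marker lists are given for control and then ketogenic mice. The 8 fibroblast markers, from Dcn to Pdgfra, summed to 7006 to 7811 and 6832 to 8163 normalized counts, and the 8 mural cell markers, from Rgs5 to Abcc9, to 28005 to 30452 and 27455 to 30280. Rgs5 had 7457 to 7691 reads per mouse, about as many as the endothelial marker Cdh5. These reads are not scaled to gene length, and a limit of reads per base was not examined for them. They are therefore no measure of the share of either cell type. The paper compared cardiomyocyte, fibroblast and smooth muscle marker RNA between the isolated cells and whole heart lysate. It also used flow cytometry with an endothelial and an immune cell marker. The markers listed here do not tell which cells the reads of the FGF genes came from. The 8 macrophage markers, from Lyz2 to Fcgr1, summed to 2470 to 7921 and 2235 to 4312. The 6 lymphocyte markers, from Cd79a to Nkg7, summed to 2303 to 3391 and 1738 to 2250, and 3 had a positive and 3 a negative log2 fold change. Cd79a, a B cell gene, fell by 0.46 on the log2 scale (adjusted p = 0.022) and was the 1 gene of the list called by edgeR, while DESeq2 called 3. The 4 mesothelial and glial markers, from Wt1 to Msln, summed to 1255 to 1755 and 913 to 1246, and Msln had no read in several mice. The part of these cells in the values of the FGF genes was not tested.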

How the data were processed

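Libraries were prepared from 10 ng RNA per mouse with the SMART-Seq v4 kit, which does not keep strand, and read as 50 base single reads. The submitters' processing notes name bcl2fastq 2.17.1.14, STAR 2.3, HTSeq 0.6.0 and the build mm10. The annotation release, the counting options and any removal of duplicate reads are not given in the sources used here. The authors deposited raw counts per gene and RPKM values. The study's methods name DESeq2 for differential expression.

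Symbols, exons and positions were taken from GENCODE M21 on GRCm38, where 46488 of 46983 identifiers were found, 37902 of them with the same version. Counts were compared between the diets with edgeR 4.0.16 in R 4.3.3, with TMM factors, filterByExpr, the quasi-likelihood F-test and Benjamini-Hochberg adjustment over 15949 genes. Standard errors were obtained from the F statistic (absolute log2 fold change over its root), and intervals use its degrees of freedom. On simulated counts in which 200 genes changed 2-fold, edgeR recovered 185 with 10 false calls among 15719 genes. DESeq2 recovered 188 with 41 false calls among 15949 genes. The changed genes were drawn from those with higher counts, so these shares do not hold for genes such as Nudt6, Fgfr2 and Fgfrl1. Countable exon bases are exon bases that no other gene's exons cover. Log2 CPM used a prior count of 2. In the 20 pairs of libraries within a diet, none were alike within counting noise. The labels do not give housing or processing batches, so no batch could be examined.

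Members and gene lists were chosen with earlier results of these data known. Named genes are the 9 members, in each pathway list and around Fgf2 the genes called or otherwise the 2 with the highest mean RPKM, the 5 genes most correlated with Fgf2, and the markers of highest and lowest mean RPKM in each list. Alternatives were DESeq2 1.42.0, other scalings and filters, limma 3.58.1 on log2 RPKM, the replicate number as a block, a covariate for cardiomyocyte markers, leaving out each mouse, and counts corrected for read start positions, the last added after the data had been seen.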

Additional observations from a re-analysis of the deposited data

Results flagged for a closer look

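None of the 9 FGF genes, other named pathway genes, Spry1 or Gm12582 had a mouse that stood apart from its diet group. This was judged by the gap between the extreme mouse and the nearest other, relative to the range. The neighbours Gm43820, Spata5, Cetn4 and Bbs12 were not among the genes examined. Among 88 groups of 5 mice examined in this way, of which chance marks about 1 in 20, 7 were marked, all of them markers of other cell types. Summed macrophage markers were highest in control mouse 1, at 7921 normalized counts against 2470 to 3947 in the other control mice, and in ketogenic mouse 4, at 4312 against 2235 to 2660. Fcgr1, a macrophage gene, was at 36.9 in ketogenic mouse 4 against 1.05 to 7.29 in the others. Nkg7, a gene of cytotoxic lymphocytes, was at 65.4 in control mouse 5 against 28.6 to 37.8, and at 61.0 in ketogenic mouse 5 against 33.5 to 39.5. Msln, a mesothelial gene, was at 15.5 in control mouse 3, where the other control mice reached at most 1.05, and at 3.93 in ketogenic mouse 3, where the others had none. Without control mouse 1, the log2 fold change of Nudt6 was -0.03 in place of -0.17.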

How the results depend on the processing

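Fgf2, chosen from this contrast, had a log2 fold change between 1.01 and 1.15 when a mouse was left out and between 0.58 (limma on log2 RPKM with 1 added, which shrinks low values) and 1.12 in the others. It was past the threshold in all 21 alternatives, which restates the choice. The count of called FGF genes was 2, with Fgfr3 beside Fgf2, under upper quartile factors, without a filter, with at least 10 counts in every mouse, in DESeq2 and with counts corrected for start positions (added after the data had been seen), and 1 to 2 with a mouse left out, where 2 came without ketogenic mouse 2. No pathway gene (0 to 0 with a mouse left out) and no neighbour of Fgf2 (0 to 0) was called in any alternative. Directions turned for Nudt6 with the cardiomyocyte score (0.065, from -0.17) and for Fgfrl1 without ketogenic mouse 2, where its range with a mouse left out was -0.16 to 0.10; neither gene was called. Over all genes, the 213 calls became 815 in DESeq2, 29 with the cardiomyocyte score and 113 with the replicate number as a block. They ranged from 86 to 492 with a mouse left out, lowest without control mouse 2 and highest without ketogenic mouse 2, and moved by over 1.5 times for every mouse but control mouse 5. The cause was not tested. The replicate numbers did not pair the mice, with correlations of same-numbered mice from -0.13 to 0.09, and the block changed no call of an FGF gene. Fgfr2 had no value with at least 10 counts in every mouse. Depth limits Nudt6, Fgfr2 and Fgfrl1, with at most 61 reads per mouse.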
